A study of Mus musculus with 8 samples.

Results

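The small leucine-rich proteoglycans (SLRPs) and versican were examined in tibialis anterior (TA) muscle of WT and mdx5cv mice. The genes were taken from the table by their symbols. They are the SLRPs Dcn, Bgn, Aspn, Fmod, Lum, Prelp, Omd and Ogn together with Vcan, which is 9 of the 55401 genes in the table of normalized counts, and 8 of them were among the 13677 genes that were tested, whose normalized counts averaged 10 or more over the muscles. A normalized count is the number of reads of a gene divided by a size factor for the library. Whole TA muscles came from male mice aged 6 months, 4 WT mice on the C57/Bl6 strain and 4 mdx5cv mice, a model of Duchenne muscular dystrophy (DMD) on the same B6 background. The mdx5cv allele is a point mutation in the dystrophin gene Dmd that is present in every cell of the animal, and the WT mice carry the normal gene. Each library held ribosome-depleted, stranded total RNA of a whole muscle, so that fibers, connective tissue and infiltrating cells were measured together.

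SLRPs are secreted proteins with a core of leucine-rich repeats that lie on the surface of collagen fibrils and limit their thickness. In muscle they are made mainly by fibroblasts, and tendon is also rich in them. Decorin (Dcn), biglycan (Bgn) and asporin (Aspn) form class I, in which decorin and biglycan carry chondroitin or dermatan sulfate chains and asporin does not. Fibromodulin (Fmod), lumican (Lum), prolargin (Prelp) and osteomodulin (Omd) form class II, whose better known members can carry keratan sulfate, and mimecan (Ogn) belongs to class III. Several SLRPs bind TGF-β, decorin also binds myostatin, and free biglycan is a ligand of the toll-like receptors TLR2 and TLR4. Versican (Vcan) is no SLRP. It is a large chondroitin sulfate proteoglycan of the hyalectan family that binds hyaluronan and is abundant in provisional, newly laid matrix.

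Most of these genes lie in small clusters of related genes (GRCm38, GENCODE M21). Dcn (10:97479609-97518143) and Lum (10:97565128-97572703) are neighbors on the plus strand of chromosome 10, 47.0 kb apart. Aspn (13:49544443-49567565), Omd (13:49582462-49592822) and Ogn (13:49608046-49624501) follow each other on the plus strand of chromosome 13 within 80.1 kb, with Ecm2, a gene for a related leucine-rich matrix protein, 11.7 kb ahead of Aspn. Prelp (1:133910304-133921414, minus strand) and Fmod (1:134037254-134048277, plus strand) lie 116 kb apart on chromosome 1. Vcan (13:89655312-89742509, minus strand) is far from the other genes of chromosome 13, and Bgn (X:73483602-73495933, plus strand) is on the X chromosome. Aspn, Omd and Ogn lie within Cenpp on the opposite strand, and the 5′ end of Vcan overlaps the antisense gene Gm4117. Cenpp had normalized counts of 2.70 to 14.2 and Gm4117 of 3.29 to 20.8 over the 8 muscles.

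Promoter sequences, taken from RefSeq for GRCm38.p6, were present for 7 of the 9 genes, with no entry for Dcn or Lum. The 250 bases before the annotated start are shown for Bgn and Vcan, which had the largest fold changes of the 9 genes, and for Aspn and Ogn, neighbors of chromosome 13 of which only Aspn passed the test of the groups. They are written 5′ to 3′ on the strand of the gene, and capitals mark matches on either strand to TATAAA (the TATA box), GGGCGG (the GC box) or TGANTCA (the AP-1 site).
Bgn, chrX:73483351-73483600, plus strand: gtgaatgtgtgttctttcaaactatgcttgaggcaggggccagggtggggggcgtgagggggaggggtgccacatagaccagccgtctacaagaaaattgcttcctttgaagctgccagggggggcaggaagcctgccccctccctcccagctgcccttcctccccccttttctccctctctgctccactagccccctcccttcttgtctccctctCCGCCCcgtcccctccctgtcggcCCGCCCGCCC
Vcan, chr13:89742513-89742762, minus strand: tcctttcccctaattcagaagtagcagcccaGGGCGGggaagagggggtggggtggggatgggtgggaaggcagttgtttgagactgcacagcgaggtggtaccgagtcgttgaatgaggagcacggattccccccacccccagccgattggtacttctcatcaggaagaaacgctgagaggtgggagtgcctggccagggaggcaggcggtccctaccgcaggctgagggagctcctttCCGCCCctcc
Aspn, chr13:49544193-49544442, plus strand: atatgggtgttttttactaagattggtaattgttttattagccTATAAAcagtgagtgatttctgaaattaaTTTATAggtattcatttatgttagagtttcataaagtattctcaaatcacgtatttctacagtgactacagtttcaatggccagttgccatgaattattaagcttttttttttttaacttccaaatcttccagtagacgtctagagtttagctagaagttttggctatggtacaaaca
Ogn, chr13:49607765-49608014, plus strand: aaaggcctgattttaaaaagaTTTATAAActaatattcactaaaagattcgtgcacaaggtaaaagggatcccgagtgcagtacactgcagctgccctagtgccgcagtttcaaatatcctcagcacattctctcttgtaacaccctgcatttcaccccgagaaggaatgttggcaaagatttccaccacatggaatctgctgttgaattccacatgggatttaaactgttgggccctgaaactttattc

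The Bgn window had a GC content of 64.4% and the Vcan window of 62.4%, against a median of 52.4% over 32851 promoters. Bgn held 3 GC boxes, the first bases of which were at -34, -10 and -6 from the start, with the last pair overlapping, and Vcan held 2, at -219 and -10. The Aspn and Ogn windows were poorer in GC, at 30.0% and 42%, and held no GC box. Each had 2 TATAAA matches, at -207 and -178 in Aspn and, overlapping each other, at -229 and -227 in Ogn. No AP-1 match was present in the 7 windows. In windows of the same length, TATAAA was found in 12.4% of all promoters, GGGCGG in 32.7% and TGANTCA in 6.75%. These matches describe the letters and are not mapped binding sites.

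Total reads per library ranged from 13175524 to 14921057, and size factors were lower in WT (0.873 to 0.944) than in mdx5cv libraries (1.06 to 1.25). The mutated gene Dmd had normalized counts of 6914, 8155, 6579 and 6169 in WT replicates 1 to 4. In mdx5cv replicates 1 to 4 it was at 4400, 4056, 3941 and 3461, a log2 fold change of -0.81 ± 0.12 (SE, n = 4 per group, limma adjusted p = 1.8e-04). Dmd was lower in every library labelled mdx5cv than in any labelled WT, and the mutation itself was not read from sequences here. The fast fiber genes Acta1, Ckm and Myh4 of TA muscle were at normalized counts of 78311 to 516258 in all 8 muscles. WT replicate 4 stood apart from the other WT muscles in the genes of tendon, fat and Schwann cells. The summed normalized count of 7 tenocyte markers was 672 in it and at least 1154 in each other WT muscle. The sum of 4 adipocyte markers was 464 in it and at most 168 in each other WT muscle. For 5 Schwann cell markers the sum was 556 in it and at most 397 in each other WT muscle. Results that this muscle changes are given with and without it. The samples are labelled as separate mice of a group, and p-values set the difference of the groups against the spread between these muscles.

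Of the 8 genes tested, Bgn, Vcan, Lum and Aspn were called higher in mdx5cv muscle, none was called lower, and Prelp, Fmod, Dcn and Ogn did not pass the test. At an unadjusted p under 0.05 none was lower either, and neither edgeR nor DESeq2 called a gene of the set lower. A gene was called at an adjusted p under 0.05 (limma, Benjamini-Hochberg over all genes tested) and a log2 fold change of 1 or more in either direction, that is a doubling or a halving, on the scale of log2(normalized count + 1). Over all genes tested, 10.3% were called higher and 3.27% lower by the same rule. The 4 genes called higher were also the 4 whose groups did not overlap, as was the case in this direction for 20.3% of all genes. The median log2 fold change of the 8 genes was 0.56, against 0.00 over all genes tested. In bulk RNA, a change in the number of cells that make a transcript and a change in RNA per cell cannot be told apart.

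**Figure D1:**
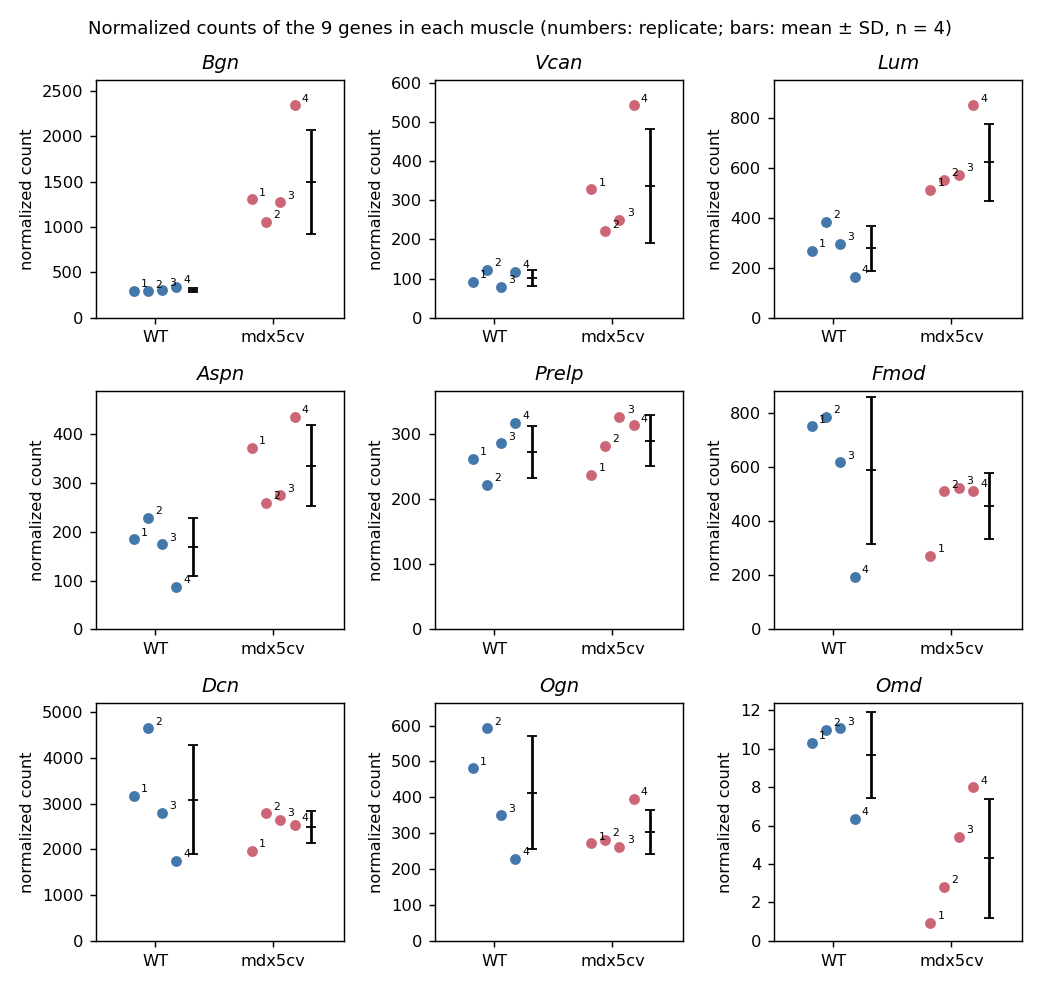
Normalized counts (y axis, from 0) of the 9 genes in each WT (blue) and mdx5cv (red) muscle, with the replicate number beside each point and the mean ± SD of each group (n = 4). Every mdx5cv muscle lies above every WT muscle for Bgn, Vcan, Lum and Aspn, and WT replicate 4 is the lowest WT muscle for Lum, Aspn, Fmod, Dcn, Ogn and Omd.

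Biglycan, which binds collagen and components of the dystrophin complex, had the largest fold change of the 9 genes. The normalized count of Bgn was 297, 292, 305 and 344 in WT replicates 1 to 4 and 1305, 1059, 1273 and 2343 in mdx5cv replicates 1 to 4. The WT muscles lay close together, whereas mdx5cv replicate 4 was well above the other mdx5cv muscles, and the groups did not overlap. The mean rose from 310 ± 23.8 to 1495 ± 576 (SD, n = 4 each), a log2 fold change of 2.20 ± 0.19 (SE, limma adjusted p = 4.0e-06) with a 95% confidence interval of 1.79 to 2.62.

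Decorin, the other class I proteoglycan with glycosaminoglycan chains and the closest relative of biglycan, had no such change. Its normalized count was 3175, 4645, 2795 and 1746 in WT replicates 1 to 4 and 1974, 2790, 2652 and 2536 in mdx5cv replicates 1 to 4. The mdx5cv muscles lay inside the range of the WT muscles, which was set by replicate 2 at the top and replicate 4 at the bottom. The log2 fold change was -0.24 ± 0.23 (SE, limma adjusted p = 0.43), and its 95% confidence interval of -0.73 to 0.25 leaves room for a modest difference in either direction.

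Asporin, a class I member without such chains, passed the test just above the fold threshold. Aspn had normalized counts of 185, 229, 175 and 87.9 in WT replicates 1 to 4 and 372, 260, 276 and 436 in mdx5cv replicates 1 to 4. The nearest muscles of the groups were WT replicate 2 and mdx5cv replicate 2, so that the separation was narrow. The log2 fold change was 1.04 ± 0.25 (SE, limma adjusted p = 0.0055). It was 0.75 without WT replicate 4 (adjusted p = 0.0068) and 0.90 without mdx5cv replicate 4 (adjusted p = 0.020), both below the fold threshold.

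Lumican of class II was higher in all mdx5cv muscles. Lum had normalized counts of 268, 385, 296 and 164 in WT replicates 1 to 4 and 512, 553, 572 and 851 in mdx5cv replicates 1 to 4, and the groups did not overlap. The log2 fold change was 1.19 ± 0.22 (SE, limma adjusted p = 0.0010). Without WT replicate 4, the lowest of the 8 muscles, it was 0.96 (adjusted p = 0.0014), so that Lum kept its adjusted p but not its fold of 2.

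Fibromodulin, which competes with lumican for the same region of collagen I, varied widely among the WT muscles. Fmod had normalized counts of 750, 784, 617 and 194 in WT replicates 1 to 4 and 271, 509, 523 and 511 in mdx5cv replicates 1 to 4. WT replicate 4 was below all mdx5cv muscles and the other WT muscles were above all of them. With all muscles the log2 fold change was -0.23 ± 0.37 (SE, limma adjusted p = 0.64), and without WT replicate 4 it was -0.70 ± 0.21 (SE, limma adjusted p = 0.019).

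Prolargin, a class II protein with a basic end that binds heparan sulfate, had the smallest log2 fold change of the 8 genes in size. Prelp had normalized counts of 262, 223, 286 and 318 in WT replicates 1 to 4 and 238, 282, 327 and 314 in mdx5cv replicates 1 to 4. The ranges nearly coincided. The log2 fold change was 0.09 ± 0.14 (SE, limma adjusted p = 0.62), with a 95% confidence interval of -0.20 to 0.39.

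Osteomodulin, a class II protein known from bone and tooth, was close to the limit of detection. Omd had normalized counts of 10.3, 11.0, 11.1 and 6.36 in WT replicates 1 to 4 and 0.926, 2.83, 5.40 and 7.99 in mdx5cv replicates 1 to 4, which stand for 6 to 10 reads and 1 to 10 reads in a library. The mean was 9.67 ± 2.24 in WT and 4.29 ± 3.08 in mdx5cv muscle (SD, n = 4 each), and the groups overlapped. Omd was below the level filter, and with no filter its log2 fold change was -1.21 ± 0.51 (SE, limma adjusted p = 0.11).

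Mimecan, the class III member, did not pass the test with all muscles. Ogn had normalized counts of 481, 592, 350 and 229 in WT replicates 1 to 4 and 272, 282, 263 and 396 in mdx5cv replicates 1 to 4. Apart from WT replicate 4, only mdx5cv replicate 4 broke the order of the groups, since it was above WT replicate 3. The log2 fold change was -0.38 ± 0.24 (SE, limma adjusted p = 0.23), and without WT replicate 4 it was -0.63 ± 0.19 (SE, limma adjusted p = 0.019). Aspn, at the other end of the same cluster, thus passed the test as higher while Ogn and Omd did not pass in either direction.

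Versican had the second largest fold change. Vcan had normalized counts of 91.7, 122, 79.6 and 118 in WT replicates 1 to 4 and 328, 221, 249 and 543 in mdx5cv replicates 1 to 4. The groups did not overlap, and mdx5cv replicate 4 was again the highest. The log2 fold change was 1.63 ± 0.24 (SE, limma adjusted p = 1.8e-04) with a 95% confidence interval of 1.11 to 2.15. The antisense gene Gm4117 at its 5′ end had mean normalized counts of 8.53 in WT and 16.1 in mdx5cv muscle, against 103 and 335 for Vcan.

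**Figure D2:**
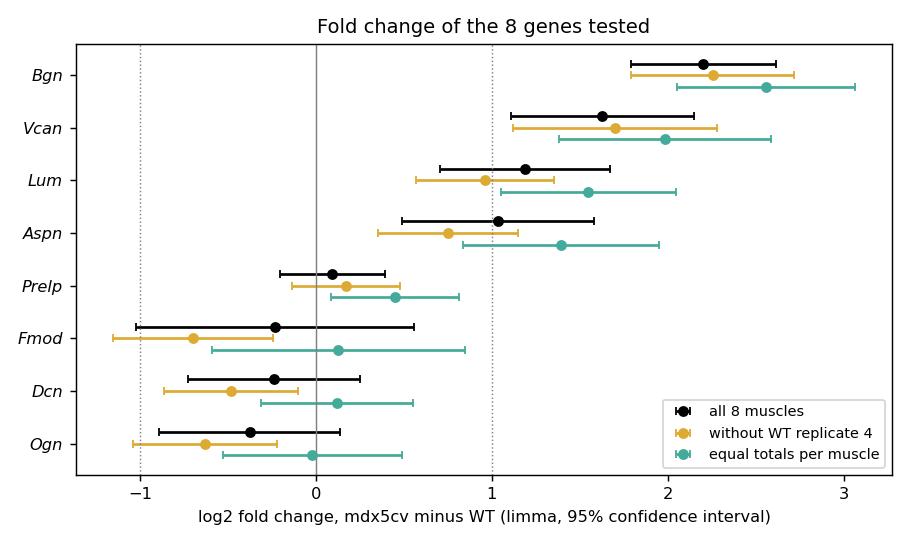
Log2 fold change (x axis, mdx5cv minus WT) of the 8 genes tested with the 95% confidence interval from limma, with all 8 muscles (black), without WT replicate 4 (yellow) and with all libraries scaled to equal totals (green). Bgn and Vcan are above 1 in each setting, whereas the intervals of Fmod, Dcn and Ogn cross 0 with all muscles and lie below 0 without WT replicate 4.

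The split of the 9 genes in WT replicate 4 did not follow their classes. In log2(normalized count + 1), the deviation of this muscle from the mean of the other WT muscles was -1.87 for Fmod, -1.14 for Aspn, -1.02 for Ogn, -0.98 for Dcn, -0.93 for Lum and -0.68 for Omd. In contrast, it deviated by 0.21 for Bgn, 0.29 for Vcan and 0.31 for Prelp. Genes of tendon matrix outside the 9 were also low in this muscle. Tnmd, a membrane protein of tenocytes, was at 3.18 against 23.2 to 32.1 in the other WT muscles, and Comp, a matrix protein of tendon and cartilage, was at 16.9 against 56.4 to 68.8. Its Pdgfra, the receptor that marks fibro-adipogenic progenitors, was at 310 against 335 to 396. How much tendon each sample contained was not tested.

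**Figure D3:**
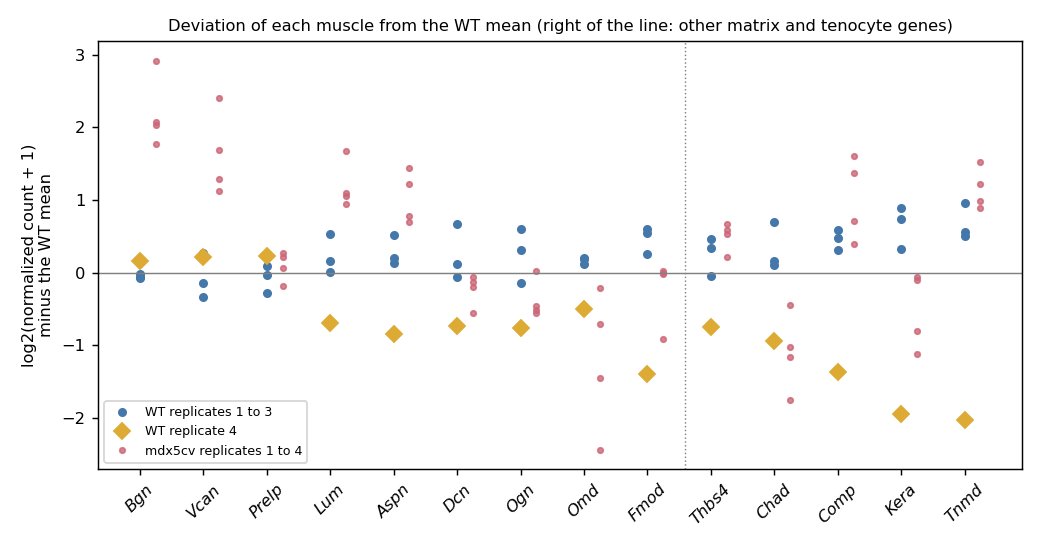
Difference of each muscle from the WT mean (y axis, log2(normalized count + 1)) for the 9 genes and, right of the dotted line, 5 other matrix and tenocyte genes. WT replicate 4 (yellow diamonds) lies above the WT mean for Bgn, Vcan and Prelp and below it for the other genes shown.

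Without WT replicate 4, Dcn (-0.49 ± 0.17, SE, limma adjusted p = 0.044), Fmod and Ogn were lower in mdx5cv muscle at an adjusted p under 0.05, each with a log2 fold change smaller than 1. Of all genes tested in that fit, 19.2% were lower at an adjusted p under 0.05 and any fold, including 485 genes that reached the fold threshold. In the fit of all muscles with libraries scaled to equal totals, which moved the median of all genes from 0.00 to 0.36, the log2 fold changes were 0.12 for Dcn, 0.13 for Fmod and -0.02 for Ogn. The count of the 8 genes called higher, with its fold threshold, was 4 with all muscles and 2 (Bgn and Vcan) without this muscle. The log2 fold changes of Bgn (2.25), Vcan (1.70) and Prelp (0.17) were close to those with all muscles. WT replicate 2 was the highest WT muscle for Dcn, Fmod and Ogn. With it left out instead, their log2 fold changes were -0.015, -0.03 and -0.18 (limma adjusted p = 0.96, 0.96 and 0.56). The lower values of these genes thus depended on which WT muscle was left out.

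A ratio of genes within a muscle is nearly free of the size factor, except for genes as low as Omd, where the added count of 1 matters, and each gene was also set against Dcn, the most abundant of them per length. Bgn was at 10.6% of Dcn in WT and 57.8% in mdx5cv muscle (geometric means of normalized count + 1), a difference in the log2 ratio of 2.44. In mdx5cv replicate 4 the log2 ratio was -0.11, so that Bgn and Dcn had nearly the same normalized count. Lum moved from 9.17% to 24.7% of Dcn (difference in log2 ratio 1.43), Vcan from 3.50% to 12.8% (1.87) and Aspn from 5.52% to 13.4% (1.28). For these 4 ratios no mdx5cv muscle overlapped the WT muscles, as was the case in this direction for 10.8% of all genes, and in the other for 2.54%. Each had the smallest p that the exact permutation test of 4 against 4 muscles allows (two-sided, p = 0.0286), and adjusted over the 8 ratios this was 0.0571, so that none passed 0.05. Without WT replicate 4, the groups still did not overlap for these 4 ratios, with differences in the log2 ratio of 2.74 for Bgn, 1.45 for Lum, 2.19 for Vcan and 1.24 for Aspn. The ratio of Fmod to Dcn was 17.7% in WT and 17.8% in mdx5cv muscle, but this equality rested on WT replicate 4, at a log2 ratio of -3.16 against -2.56 to -2.08 in the other WT muscles. Without it the difference in the log2 ratio was -0.21, and the groups overlapped with and without it. The ratio of Ogn to Dcn was 13.4% and 12.2% and also overlapped. That of Prelp differed by 0.33 with all muscles and 0.66 without WT replicate 4, and overlapped in both. Without WT replicate 2 it differed by 0.016.

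Collagens that SLRPs bind, fibrillar and other, were compared with them in the same way. The 10 chains of collagens I, III, V, VI, XII and XIV on the list were all called higher, against 10.3% of all genes tested. Their median log2 fold change was 2.20. Col1a1 had a log2 fold change of 3.13 ± 0.20 (SE, limma adjusted p = 4.7e-07), Col3a1 of 3.09 ± 0.21 and Col1a2 of 2.29 ± 0.18. Within each muscle, all 9 genes were lower against the sum of Col1a1, Col1a2 and Col3a1 in mdx5cv than in WT muscle, with no overlap of the groups (exact permutation test, two-sided, p = 0.0286 for each, 0.0286 adjusted over 9 ratios). The same was true of 94.7% of all genes tested, since the collagens had such large changes, so the count says nothing particular to these genes and the sizes are given as values. Dcn was at 80.3% of this sum in WT and 9.53% in mdx5cv muscle, a difference in the log2 ratio of -3.08. The ratio of Fmod changed by -3.07, that of Ogn by -3.21, that of Prelp by -2.74 and that of Omd by -4.04. The smallest change was that of Bgn, from 8.54% to 5.51% of the collagen sum (difference in log2 ratio -0.63), followed by Vcan (-1.21), Lum (-1.64) and Aspn (-1.80). Without WT replicate 4 the differences ran from -0.67 for Bgn to -4.30 for Omd.

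**Figure D4:**
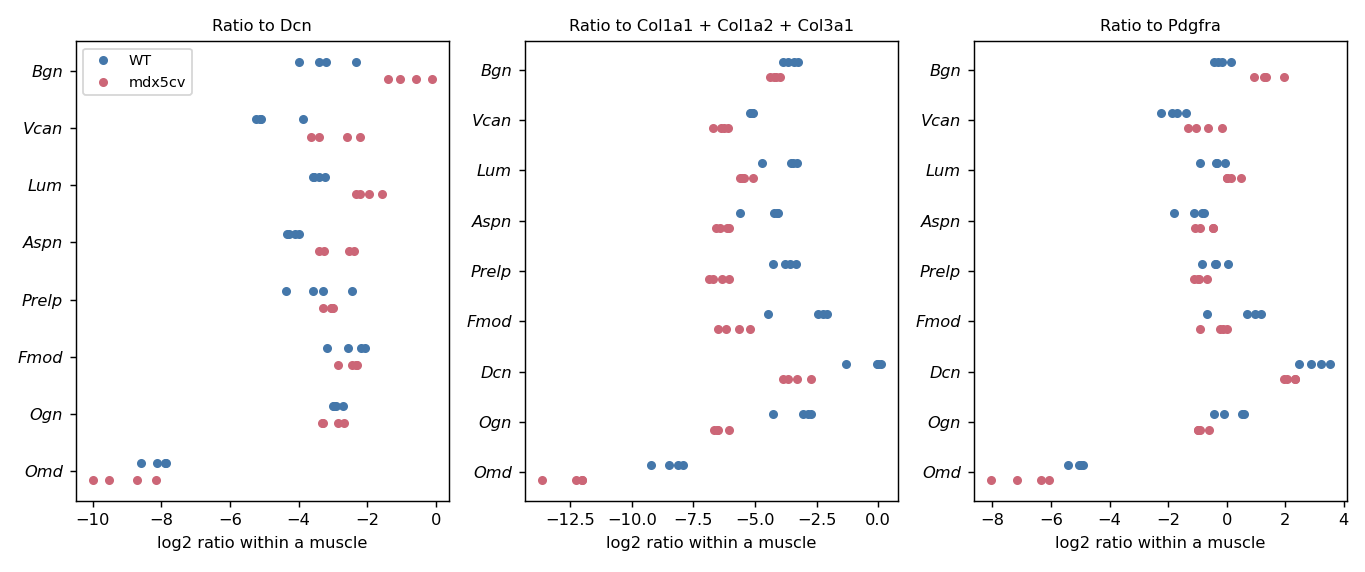
Log2 ratio (x axis) of each gene within each WT (blue) and mdx5cv (red) muscle to Dcn (left), to the sum of Col1a1, Col1a2 and Col3a1 (middle) and to Pdgfra (right). Against Dcn, 4 genes are shifted right in mdx5cv muscle without overlap, against the collagens all 9 are shifted left, and against Pdgfra 3 are shifted right and 3 left without overlap.

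Pdgfra itself was at 335, 396, 377 and 310 in WT replicates 1 to 4 and 512, 553, 520 and 599 in mdx5cv replicates 1 to 4, a log2 fold change of 0.63 ± 0.11 (SE, limma adjusted p = 6.2e-04) that is below the fold threshold. Set against it, Bgn (difference in log2 ratio 1.58), Vcan (1.002) and Lum (0.57) were higher in mdx5cv muscle and Dcn (-0.87), Ogn (-1.004) and Omd (-1.83) lower, each without overlap (exact permutation test, two-sided, p = 0.0286, 0.0429 adjusted over 9 ratios). Over all genes tested, 6.68% were higher and 53.5% lower against Pdgfra without overlap, so that a lower ratio was common. The value for Omd rests on 1 to 10 reads and was -1.09 with an added count of 10. The differences for Aspn (0.41), Fmod (-0.86) and Prelp (-0.53) did not pass. Without WT replicate 4 the difference for Aspn was 0.19 and that for Fmod -1.26, and the groups of Fmod then no longer overlapped (0.71 to 1.16 in WT and -0.91 to 0.0075 in mdx5cv muscle). The normalized count of Dcn was thus 823% of that of Pdgfra in WT and 452% in mdx5cv muscle (geometric means). Pdgfra is 1 of 9 fibroblast and fibro-adipogenic progenitor markers listed here, whose median log2 fold change was -0.009. The summed normalized count of these markers was 6712 to 10453 in WT and 5205 to 7254 in mdx5cv muscle. The ratios above are to Pdgfra alone and do not stand for the other markers.

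Levels of different genes were compared per kb of summed exon length, since longer transcripts give more reads. Dcn was the highest of the 9 in both groups, at 529 ± 206 normalized counts per kb in WT and 426 ± 61.3 in mdx5cv muscle (SD, n = 4 each). No other gene reached its range in WT muscle. It was followed there by Fmod (177 ± 82.1), Ogn (161 ± 61.5) and Lum (114 ± 37.2), whose ranges overlapped, then Prelp (75.3 ± 11.1), Aspn (71.8 ± 25.1) and Bgn (50.7 ± 3.91). In mdx5cv muscle Lum (254 ± 63.2) and Bgn (245 ± 94.4) came next, and their ranges overlapped each other and, on this length, that of Dcn, followed by Aspn (143 ± 35.3), Fmod (137 ± 36.8), Ogn (118 ± 24.3) and Prelp (80.3 ± 10.9). Vcan and Omd were the lowest in both groups, with Vcan at 7.10 ± 1.41 and 23.2 ± 10.1 and Omd at 4.30 ± 0.995 and 1.91 ± 1.37. The place of Bgn depended on the length used. Its annotated exons sum to 6099 bases, but its longest protein-coding transcript has 2419, and with the latter Bgn took place 4 in WT and place 2 in mdx5cv muscle instead of places 7 and 3. Dcn was the highest with either length. Its exons sum to 5838 bases and its longest coding transcript has 1758, and with the latter its range in mdx5cv muscle (1123 to 1587) lay above those of Bgn (438 to 969) and Lum (209 to 348).

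Over the 8 muscles, the 9 genes were compared by the likeness of their patterns. This likeness was measured as the root mean square difference of log2(normalized count + 1) after each gene was centred on its WT mean. The mdx5cv values keep their distance from that mean, so genes with similar log2 fold changes come out alike. Nearness here is thus largely likeness of fold change and does not test whether genes are expressed together. Aspn and Lum were the most alike (0.228), then Dcn and Ogn (0.235) and Dcn and Fmod (0.339), while the nearest gene to Bgn was Vcan (0.452). Of the genes outside the 9, the 7633 whose normalized counts averaged 100 or more were compared with them, and those nearest to Lum were Col12a1 (0.111), a collagen on the fibril surface, and Mgp (0.135), an inhibitor of matrix calcification. Nearest to Bgn were the lysosomal protease gene Lgmn (0.146) and Adcy7 (0.147), and nearest to Vcan was Gusb (0.127), a lysosomal enzyme that cleaves glycosaminoglycans. Those nearest to Aspn were Olfml3 (0.193), a secreted matrix protein, and Fam49a (0.198), and those nearest to Dcn were Cox7a2l (0.153) and Rapgef5 (0.163). For Prelp, the nearest were Zdhhc8 (0.085) and other genes with little difference between groups, and for Ogn the nearest was Prpf38a (0.209).

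Of 10 other SLRPs and related leucine-rich matrix genes, 5 had levels that could be tested, with a median log2 fold change of -0.06. None was called higher and 1 lower, against 10.3% and 3.27% of all genes tested. The gene called lower was Chad (chondroadherin, a cartilage and tendon protein), with a log2 fold change of -1.10 ± 0.36 (SE, limma adjusted p = 0.026). This call was lost when WT replicate 1, 2 or 3 or mdx5cv replicate 1 or 3 was left out (-0.87 to -1.08, adjusted p = 0.050 to 0.091), with equal totals (-0.76) and with an added count of 10 (-0.80). Kera (keratocan) had a log2 fold change of -0.52 with all muscles (adjusted p = 0.45) and -1.17 without WT replicate 4 (adjusted p = 0.010), in which it was at 6.36 against 34.3 to 51.6 in the other WT muscles. Podn (0.47), Tsku (0.73) and Ecm2 (-0.06) were not called. Without WT replicate 4, Podn was at 0.62 (limma adjusted p = 0.036) and Tsku at 0.82 (adjusted p = 0.029), both short of the fold threshold. Ecm2 was then at -0.17 (adjusted p = 0.35). Podnl1 was below the level filter, with normalized counts of 0, 1.10, 0 and 0 in WT replicates 1 to 4 and 19.5, 16.0, 9.005 and 28.8 in mdx5cv replicates 1 to 4, and it is named here after its values were seen. A level of 0 to 1 reads in the WT libraries is too low for a fold change.

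Other members of the hyalectan family were nearly absent, so that Vcan was the only hyalectan at a measurable level. Acan reached a normalized count of at most 7.99, Ncan at most 2.78, and Bcan was at 0 in all muscles. Of the hyaluronan genes, the hyaluronan receptor Cd44 was called higher, with normalized counts of 77.9 to 104 in WT and 453 to 1048 in mdx5cv muscle and a log2 fold change of 2.84 ± 0.22 (SE, limma adjusted p = 1.5e-06). The synthase Has2 (0.95 ± 0.31, adjusted p = 0.028) was below the fold threshold and Has3 had a log2 fold change of -0.65 ± 0.21 (limma adjusted p = 0.026). The 9 proteases and partners of versican had a median log2 fold change of 0.68. Of these, 3 were called higher and none lower, against 10.3% and 3.27% of all genes tested. The protease gene Adamts20 (1.26 ± 0.24) and the microfibril gene Fbn1 (1.35 ± 0.22) were among the 3 called higher. The other was the protease gene Adamts4, which passed the level filter only through its mdx5cv values, at 0 to 5 reads in WT and 23 to 83 reads in mdx5cv libraries, so that no fold change is given. With at least 10 in every sample the count was 2. Adamts5 had a log2 fold change of 0.81 and Adamts1 of -0.56, so that the versican proteases did not share a direction.

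Of 26 genes that build and sulfate glycosaminoglycan chains, 23 were tested, and 2 were called higher and 1 lower, with a median log2 fold change of 0.39. By the same rule 10.3% of all genes tested were called higher and 3.27% lower, so that both counts were near these shares. Chpf, which extends chondroitin chains, had a log2 fold change of 1.26 ± 0.26 (SE, limma adjusted p = 0.0019), and Dse, the epimerase that turns chondroitin into dermatan sulfate, of 1.24 ± 0.23. Fam20b, a kinase that phosphorylates the first sugar of the linkage to the core protein, was called lower at -1.07 ± 0.12 (SE, limma adjusted p = 2.1e-05). It was at -0.99 without WT replicate 2 and -0.71 with equal totals, both short of the fold threshold, and the number called higher was 4 without mdx5cv replicate 1 and 7 with equal totals. Of 12 ligands and receptors that SLRPs bind, 11 were tested, with a median log2 fold change of 0.39. Of these, 4 were called higher and 1 lower, against 10.3% and 3.27% of all genes tested. The growth factor Tgfb1 was at 13.8 to 33.9 in WT and 112 to 223 in mdx5cv muscle (log2 fold change 2.48 ± 0.28, SE, limma adjusted p = 2.5e-05), whereas Tgfb2 (-0.16), Tgfb3 (0.18) and its target Ccn2 (0.39) were not called. The biglycan receptors Tlr2 (2.34 ± 0.41) and Tlr4 (1.11 ± 0.19) and the endocytic decorin receptor Lrp1 (1.11 ± 0.15) were called higher. With at least 10 in every sample, the number of ligands and receptors called higher was 3 instead of 4. Without mdx5cv replicate 4, Tlr4 was at 0.95 and Lrp1 at 0.93, so that 2 of the 4 remained above the fold threshold. Mstn, the myostatin gene, was called lower, at 448 to 655 in WT and 63.2 to 104 in mdx5cv muscle (-2.73 ± 0.17, SE, limma adjusted p = 4.8e-07).

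**Figure D5:**
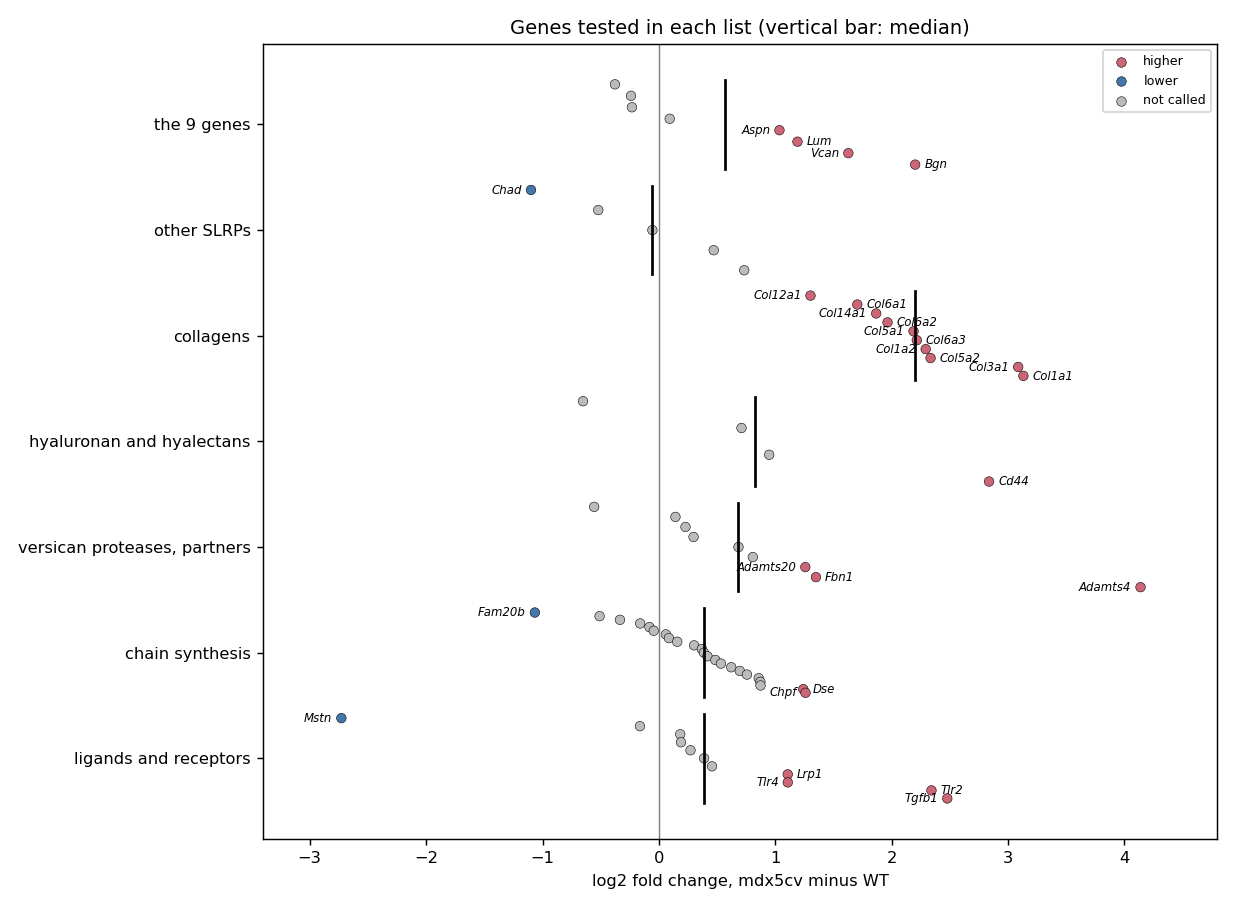
Log2 fold change (x axis, mdx5cv minus WT) of each gene tested on the list of the 9 genes and on 6 lists of related genes, where red points were called higher, blue points lower and gray points not called, and the vertical bar is the median of the list. Adamts4, at 0 to 5 reads in WT libraries, is plotted at its fitted value, which depends on the added count of 1. The 10 collagen genes lie between 1.30 and 3.13, whereas the 9 genes, of which 8 are shown, run from -0.38 to 2.20.

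Markers of several cell types of the muscle differed between the genotypes, and their part in the results above was not tested. Of all genes tested, 10.3% were called higher and 3.27% lower. At an adjusted p under 0.05 and any fold, 2854 of the 13677 genes were higher and 2743 lower. All 7 macrophage markers were called higher, and their summed normalized count was 528 to 800 in WT and 3837 to 9189 in mdx5cv muscle. All 5 markers of regenerating fibers were called higher, with sums of 118 to 143 and 2151 to 8413. Both sums were highest in mdx5cv replicate 4, the muscle that was also highest for Bgn, Vcan, Lum and Aspn. Of 9 fibroblast and fibro-adipogenic progenitor markers only Mfap5 was called higher. At an adjusted p under 0.05 and any fold, 3 were higher and 0 lower, and the median log2 fold change of the 9 was -0.009. Sums of the 9 were 6712 to 10453 in WT and 5205 to 7254 in mdx5cv muscle. None of 7 tenocyte markers was called, with sums of 672 to 1576 and 1318 to 1935, although at an adjusted p under 0.05 and any fold 1 was higher. Sox9 and Runx2, the 2 of 6 chondrocyte and osteoblast markers that were tested, were called higher, while the bone gene Bglap was at 0 in all WT muscles and at most 1.598 in mdx5cv muscles. No endothelial marker of 5 reached the fold threshold, but all 5 were lower at an adjusted p under 0.05. Their sums were 2891 to 3438 in WT and 1705 to 2161 in mdx5cv muscle. Of 7 smooth muscle and pericyte markers none reached it either, while 3 were higher and 3 lower at any fold, with sums of 6905 to 8128 and 4974 to 5834. Of the adipocyte markers, 3 of 4 were called lower, with sums of 58.4 to 464 in WT and 14.8 to 51.9 in mdx5cv muscle, and of the Schwann cell markers 1 of 4 tested.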

How the data were processed

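TA muscles of 4 WT and 4 mdx5cv mice were profiled by RNA-seq after Trizol extraction and a stranded total RNA kit. Per the labels, the submitters' processing notes name Trim Galore 0.6.4, STAR 2.6.0c, SAMtools 1.9, featureCounts, MultiQC 1.6, DESeq2 1.26.0 and R 3.6.2 with mm10; the strand setting of the counting was not given in the sources used here. The authors deposited 1 table of signal per gene, which is the read count of a gene over the size factor of its library. Whole reads were recovered for 100% of values (within 0.01), and the factors equal median-of-ratios factors recomputed from them. Chi-square per degree of freedom between replicates was 9.55 to 43.2, so no library was a copy of another.

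Groups were taken from the labels. Normalized counts were compared with limma 3.58.1 (R 4.3.3; lmFit, eBayes with trend, two-sided) on log2(normalized count + 1) over 13677 genes with a mean of at least 10, with Benjamini-Hochberg adjustment. Ratios used an exact permutation test over 70 splits of the muscles (scipy 1.17.1). Alternatives included edgeR 4.0.16 and DESeq2 1.42.0 on the recovered reads. Each test was checked on simulated data. Exon lengths and coordinates are from GENCODE M21, matched for 55141 of 55401 IDs with versions ignored.

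All 9 genes are named, and of the other lists the genes called, the 3 with the largest change and a fixed set of named genes. The genes and lists were chosen with earlier results of these data known.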

Additional observations from a re-analysis of the deposited data

Results flagged for a closer look

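Values of 4 muscles of a group, in log2(normalized count + 1), were screened for a highest or lowest muscle whose gap to the nearest of the others, divided by the range of the group, exceeded Dixon's critical value. Of 78 sets of 4, covering the 9 genes, 20 related genes and the sums of 10 marker lists in each group, 7 passed, where chance gives about 1 in 20 sets, or 3.9. Among the 9 genes, Fmod was at 8.09 in mdx5cv replicate 1 against 8.996 to 9.03 in the other mdx5cv muscles. Omd was at 2.88 in WT replicate 4 against 3.50 to 3.59, and Ogn was at 8.63 in mdx5cv replicate 4 against 8.04 to 8.14.

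Outside the 9 genes, the tenocyte gene Tnmd was at 2.06 in WT replicate 4 against 4.60 to 5.05 in the other WT muscles. In WT replicate 3, Adamts1 was at 8.88 against 9.02 to 9.05, and Cd44 was at 6.71 against 6.30 to 6.37. The summed fibroblast and fibro-adipogenic progenitor markers were at 13.35 in WT replicate 2, the WT muscle with the highest Dcn, Lum, Aspn, Ogn and Fmod, against 12.71 to 12.77 in the other WT muscles.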

How the results depend on the processing

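The number of the 9 genes called higher was 4 and called lower 0 with all muscles, and over the fits that left out 1 muscle each the number higher ranged from 2 to 4, with 2 without WT replicate 4. The median log2 fold change of the genes tested was 0.56, from 0.46 to 0.63 with 1 muscle left out, 0.093 with no filter on low values (which adds Omd) and 0.92 with equal totals per library. Equal totals moved the median of all genes from 0.00 to 0.36 and the share of calls that were higher from 76.0% to 91.5%. Under this scaling Dcn was at 0.12 (adjusted p = 0.65) and Fmod at 0.13 (adjusted p = 0.78), the sign opposite to that of the deposited scaling, while relative to the median of all genes both stayed lower. Prelp was then at 0.45 (limma adjusted p = 0.042). Aspn was the gene nearest a threshold, at 0.99 with an added count of 10, 0.998 with edgeR, 0.999 with DESeq2, and 0.98 without mdx5cv replicate 1. Replicate numbers did not pair the muscles (same-number correlations of deviations 0.050, 0.031, 0.072 and 0.146), and with the replicate block 4 genes were called higher and 0 lower, as without it. The 3 against 4 splits left after removing a muscle cannot give an exact p below 0.0571, so these ratios have values and no test. Omd, at 1 to 10 reads per library, could not be resolved at this depth.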
